A study of Mus musculus with 2 samples.

Results

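Cytochrome P450 genes were taken as all genes whose platform symbol is Cyp followed by a number and a letter, together with the reductase gene Por, and were described in the colon of mice with and without epithelial HIF-2α during dextran sulfate sodium (DSS) injury. The rule found 95 of 45101 probe sets, which stand for 72 of 18193 genes. No probe set carried Por as its only symbol, so Por was not analysed here, and Cyp51, whose symbol has no letter after the number, is given separately. The genes were sorted by subfamily into 36 xenobiotic, 19 fatty acid, 2 retinoid and 14 sterol genes and 1 orphan, Cyp20a1.

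Both groups were C57BL/6 mice given 3% DSS for 3 days, and RNA came from mucosal scrapings of the colon. DSS is a sulfated polysaccharide that injures the colonic mucosa, and no sample without DSS was analysed here. Hif-2αF/F mice carry conditional (floxed) alleles of Epas1, the gene of the oxygen-regulated transcription factor HIF-2α, and served as controls. Hif-2αΔIE mice lack it in the intestinal epithelium, as ΔIE is read from knowledge of this mouse model; the sources used here do not name the promoter that drives Cre, and immune and stromal cells of the scraping keep the gene. The sample labels give an age of 6 to 8 weeks and the design text 7 weeks. In the design text 6 mice are counted for F/F and 5 for ΔIE, but there is 1 array per genotype, and the sources used here do not say whether several mice were pooled on it. With 1 array per genotype no test, error or p-value could be computed, so each difference below compares these 2 arrays and has no replicate check.

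The deposited values are on a log2 scale and were computed by RMA, a method that corrects background, equalises the distributions of arrays and summarises each probe set. A difference is ΔIE minus F/F on that scale. A gene is represented by its brightest probe set and was kept where its higher array was at or above 6.11, the median over probe sets of their mean level. That kept 27 P450 genes among 11899 genes. No fold is printed where 1 of the arrays lies below 6.11. Probe sets of different genes differ in sensitivity, so levels are compared between arrays and not between genes.

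Cytochrome P450 enzymes are haem proteins that insert an oxygen atom into their substrates. Those of the endoplasmic reticulum receive electrons from P450 reductase or cytochrome b5, and those of mitochondria receive them from ferredoxin. Families 1 to 3 act mainly on drugs, toxins and dietary compounds, family 4 on fatty acids and eicosanoids, and family 26 degrades retinoic acid, while several single-member families make or break down sterols, bile acids, steroid hormones and vitamin D. In the gut, epithelial P450 enzymes are the body's first contact with swallowed compounds, and nuclear receptors such as PXR, HNF4α and the PPARs control many of their genes.

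Epas1 itself was nearly the same on both arrays, at 11.90 in F/F and 11.77 in ΔIE by its brightest probe set and 6.98 and 7.15 by the other. Whether either probe set lies in the deleted stretch is not known here, so these values do not check the genotype label. The arrays differed in cell content markers as well as in genotype. The 4 control probe sets for Cre recombinase read 2.92 to 4.22 on the F/F array and 7.86 to 10.01 on the ΔIE array. They are controls of the platform, and whether this difference comes from the mice or from the assay was not tested. Colonocyte markers were present on both, with a mean over 12 genes of 12.83 in F/F against 13.12 in ΔIE, and 10 of the 12 were higher on the ΔIE array (median 0.19), the most Slc9a3, a sodium-proton exchanger gene, by 1.47. Of 10 hepatocyte genes measured, 5 passed the filter, with 4 below 0, 1 above and a median of -0.11. Among them were Ttr, a plasma carrier protein gene (3.16-fold lower in ΔIE), Cps1 at 8.58 and 8.37 and Tat at 8.19 and 8.10. Apoh went the other way, at 5.46 in F/F and 6.11 in ΔIE. The albumin gene Alb was below the filter at 4.98 and 5.25. All 13 neutrophil genes kept were lower on the ΔIE array (median -1.56), as were all 14 macrophage genes (-1.14) and 10 of 11 squamous epithelium genes (-1.17). Also lower were 11 of 12 fibroblast genes (-0.92), all 12 endothelial genes (-0.45) and all 7 posterior Hox genes (-1.49). All 8 adipose genes (0.73) and all 10 skeletal muscle genes (1.33) were higher. The 9 small intestine genes kept were divided, with 5 above 0 and 4 below (median 0.25). They ran from -0.73 (Lyz1) to 1.09 (Slc10a2). Among all genes kept, 52.7% were above 0, and 5529 of 11899 were below it. Of the listed genes, Apoh, Krt1, Lor, Hoxa10, Hoxa13, Hoxd11, Tnnt3, Mb and Atp2a1 passed the filter described above only through the array where they were high. The direction of those genes was thus favoured by the filter. The part of the cell types, and of the gut region sampled, in the P450 differences was not tested. In such bulk RNA fewer cells of a type and less RNA per cell cannot be told apart.

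P450 genes lay on both sides. Of the 27 kept, 5 were at least 2-fold lower on the ΔIE array, a share of 18.5% where 5.30% of all genes kept were that much lower. The 5 were Cyp2c68, Cyp2d12, Cyp7b1, Cyp4f18 and Cyp2d10. Another 3, or 11.1%, were at least 2-fold higher, where 1.15% of all genes were: Cyp3a25, Cyp2c65 and Cyp4b1. At 1.5-fold the P450 genes divided evenly, with 9 lower and 9 higher (33.3% each), where 10.6% of all genes were lower and 4.37% higher. The median over the 27 was 0.06, beside 0.02 over all genes kept. Among the 27, Cyp3a25, Cyp2d12, Cyp2d13 and Cyp1b1 passed the filter only through the array where they were high, so their differences rest on 1 value below it. With the filter on both arrays, 23 P450 genes were left, 4 of them at least 2-fold lower and 2 higher, where 4.28% and 1.03% of all genes were. Cyp2c68 ranked 36th from the bottom of the 11899 genes.

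**Figure D1:**
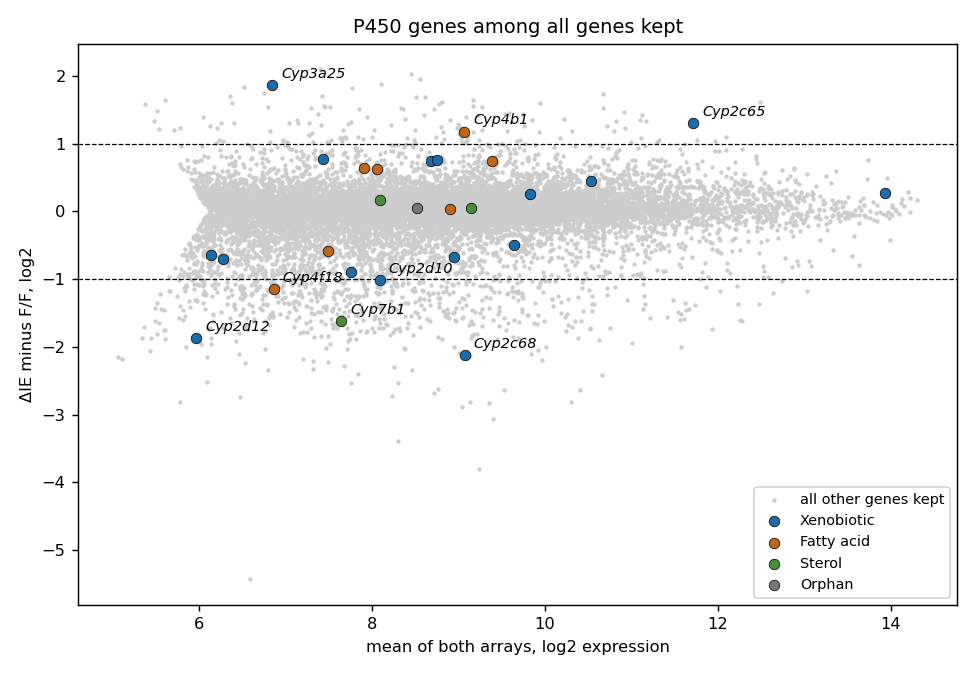
Each point is a gene kept by the filter, with the mean of both arrays on the x axis (log2 expression) and the difference ΔIE minus F/F (log2) on the y axis; coloured points are the 27 P450 genes by class, grey points all other genes, and dashed lines mark 2-fold. The 8 labelled P450 genes lie beyond 2-fold, 5 below and 3 above.

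The other 45 P450 genes were below the filter on both arrays, with values from 2.76 to 6.07. None of them differed by 2-fold, and their differences ran from -0.49 (Cyp2r1) to 0.81 (Cyp3a44). They include the hepatic bile acid genes Cyp7a1 (3.70 in F/F and 3.78 in ΔIE) and Cyp8b1 (3.95 and 4.01) and the adrenal genes Cyp11b2 (4.06 and 4.12) and Cyp17a1 (3.95 and 3.83). Cyp1a1, the classical target of the aryl hydrocarbon receptor, read 4.39 and 4.43, and Cyp1a2 3.46 and 3.37. RMA makes no detection call, and differences between dim readings are compressed, so a change in these genes may not have been detectable.

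**Figure D2:**
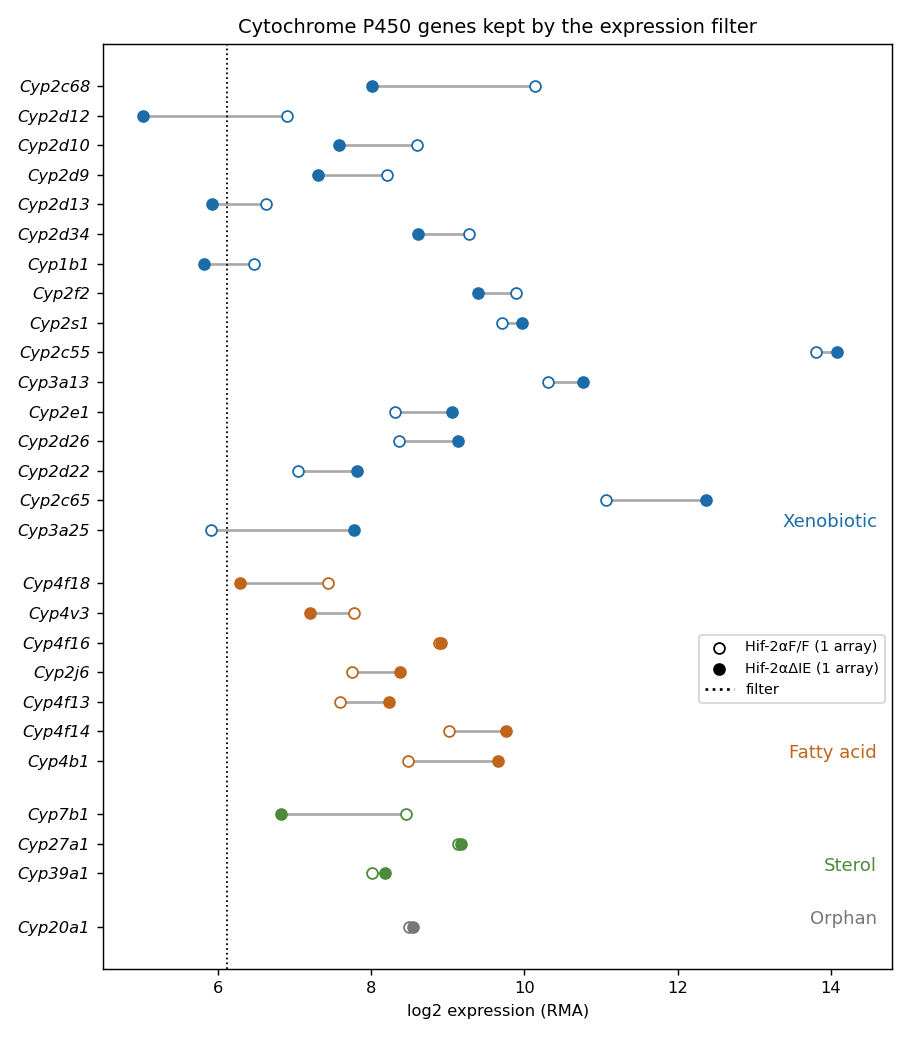
The log2 expression of each of the 27 P450 genes kept is shown on the F/F array (open circle) and the ΔIE array (filled circle), grouped by class and ordered by the difference; the dotted line is the filter at 6.11. The longest lines are those of Cyp2c68 (10.14 to 8.01) and Cyp2d12 (6.90 to 5.03) to the left and Cyp3a25 (5.91 to 7.78) to the right.

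Among xenobiotic genes, 16 of 36 were kept. Of these, 3 were at least 2-fold lower and 2 at least 2-fold higher, beside 5.30% and 1.15% of all genes kept, and Cyp2d12 and Cyp3a25 among them have 1 value below the filter. Above 0 lay 8 and below it 8, where 52.7% of all genes kept were above 0. Their median of -0.12 has no stable sign: it was 0.26 when both arrays had to reach the filter and 0.26 when probe sets of a gene were averaged. The class is therefore described by subfamily. The Cyp2c genes, which oxidise drugs as well as arachidonic and linoleic acid, went in opposite directions. Cyp2c65, a Cyp2c gene of the gastrointestinal tract, went from 11.06 in F/F to 12.36 in ΔIE, 2.46-fold higher. Its probe set carries the suffix that marks probes able to match several transcripts, and no other probe set stands for it. Cyp2c68 stood at 10.14 in F/F against 8.01 in ΔIE and was 4.37-fold lower, which is the largest P450 difference on these arrays. Cyp2c55, a colonic gene whose enzyme hydroxylates arachidonic acid, read 13.80 and 14.07, near the highest values on the arrays (14.43 and 14.48). The 8 other Cyp2c genes measured, Cyp2c23, Cyp2c29, Cyp2c37, Cyp2c38, Cyp2c39, Cyp2c50, Cyp2c54 and Cyp2c70, were below the filter and differed by -0.39 to 0.33.

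In gene order along the chromosome, Cyp2c55 and Cyp2c65 are the first genes of a cluster of 14, and Cyp2c68 is the eighth, between Cyp2c67 and Cyp2c40, which have no probe set of their own here. Their upstream sequences are shown because Cyp2c65 and Cyp2c68 differed most and in opposite directions while sharing a motif. Each is the stretch of 120 bases before the RefSeq transcript start in build GRCm38.p6, with capitals on the letters CAAAGTCCA, a recognition sequence of HNF4α:
Cyp2c65: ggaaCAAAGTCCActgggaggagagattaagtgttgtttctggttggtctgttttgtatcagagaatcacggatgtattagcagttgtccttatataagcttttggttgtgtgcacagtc
Cyp2c68: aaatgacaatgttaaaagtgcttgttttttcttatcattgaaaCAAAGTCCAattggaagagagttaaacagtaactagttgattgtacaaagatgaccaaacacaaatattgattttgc
The Cyp2c65 stretch lies at chr19:39060886-39061005 on the plus strand and that of Cyp2c68 at chr19:39741102-39741221 on the minus strand. Searched on both strands over 250 bases before the start, these letters were in 103 of 27025 promoters (0.4%) and in 11 of the 78 promoters whose symbols match the Cyp rule (14.1%). Of those 11, 6 are Cyp2c and 4 Cyp3a genes, paralogs whose promoters share ancestry, and the last is Cyp8b1. The motif thus stands before both the Cyp2c gene kept with the highest difference and the one with the lowest, and a match is a description of letters and not of binding. Hnf4a itself read 12.45 in F/F and 12.78 in ΔIE. Over the 250 bases Cyp2c68 and Cyp2c69, the tenth gene of the cluster, were 91.3% identical, and Cyp2c68 and Cyp2c65 47.1%. Transcript and probe sequences were not compared, so whether the Cyp2c68 probe set also reads near copies was not tested.

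The Cyp2d genes, whose human counterpart oxidises many basic drugs, divided by their place in the cluster. Cyp2d22, the first of 9 in gene order, read 7.04 in F/F and 7.82 in ΔIE. Its dimmer probe set gave 6.71 and 7.18. Cyp2d26, the ninth, read 8.37 and 9.13, so both end genes were higher on the ΔIE array, by 0.78 and 0.76.

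Between them, all 5 genes kept were lower. Cyp2d10 was at 8.60 in F/F against 7.58 in ΔIE (2.02-fold). Cyp2d9, known as a male-predominant steroid hydroxylase of the liver, read 8.20 and 7.31 (1.86-fold). Cyp2d12 read 6.90 and 5.03, the lower value being under the filter. Cyp2d34 read 9.28 and 8.61 (1.60-fold). Cyp2d13, which RefSeq lists as a transcribed pseudogene, read 6.63 and 5.92, and its dimmer probe set 5.53 and 4.03. The eighth gene, Cyp2d40, was below the filter at 4.23 and 4.37, and Cyp2d11 has no probe set of its own here. The lower Cyp2d genes are thus consecutive wherever a value was obtained. Cyp2d genes are close copies, and their probe sets may share transcripts, so the 5 values are not 5 independent measurements. Because Cyp2d9 differs by sex in liver, sex-linked genes were read as well: the Y-linked genes Kdm5d (7.88 and 8.48), Eif2s3y (8.85 and 9.02) and Uty (7.38 and 7.69) passed the filter on both arrays, and the 3 Xist probe sets, 3.20 to 5.54, were below it on both.

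**Figure D3:**
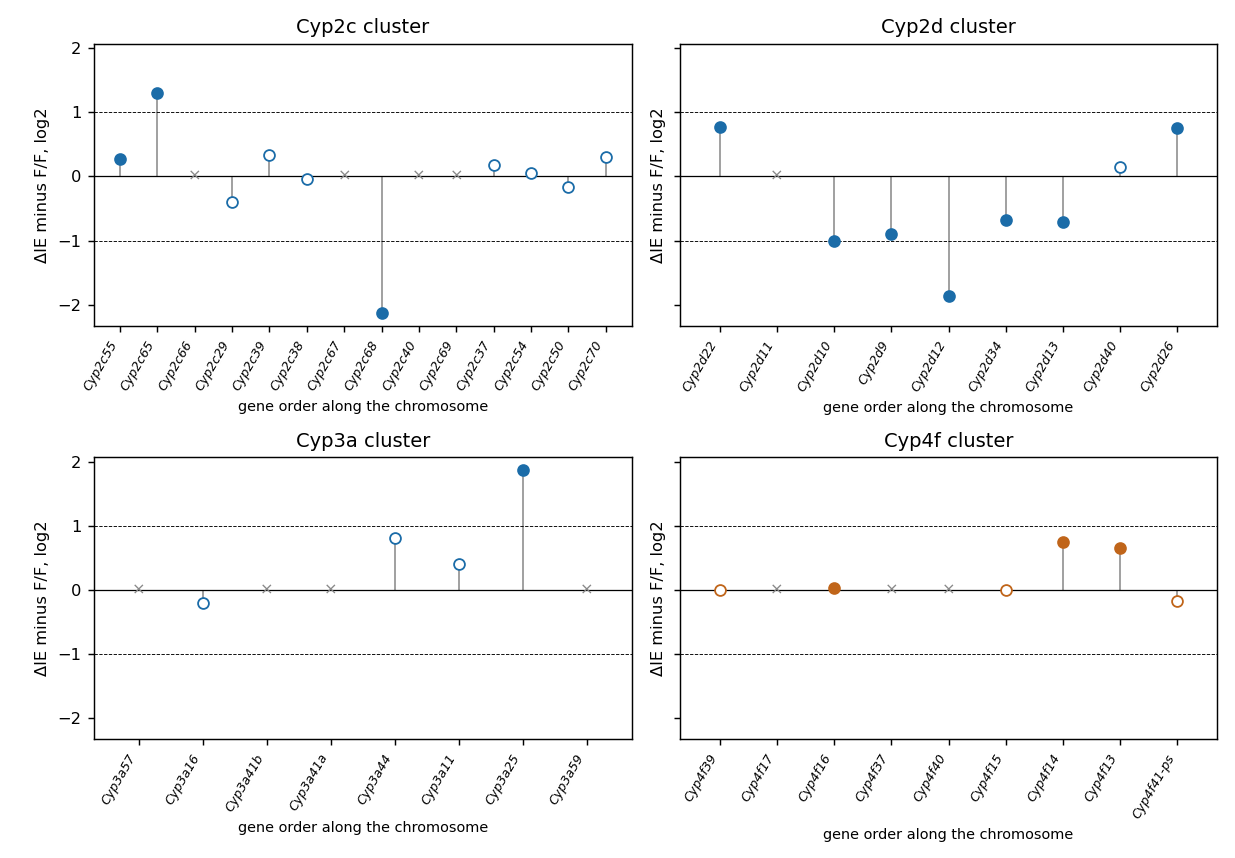
The difference ΔIE minus F/F (log2) is plotted against gene order for the Cyp2c, Cyp2d, Cyp3a and Cyp4f clusters; filled circles are genes kept, open circles genes below the filter on both arrays, and crosses genes without a probe set of their own. In the Cyp2d cluster the first and last genes lie at 0.78 and 0.76 and the 5 kept between them at -0.67 to -1.87.

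The promoters of Cyp2d9 and Cyp2d10, which were lower, and Cyp2d26, which was higher, are shown to set the groups side by side. Capitals mark the longest run of letters shared by Cyp2d9 and Cyp2d10 and, in Cyp2d26, the longest run it shares with Cyp2d9:
Cyp2d9: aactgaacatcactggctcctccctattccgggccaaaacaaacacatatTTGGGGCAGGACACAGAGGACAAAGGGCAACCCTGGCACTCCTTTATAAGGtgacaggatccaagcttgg
Cyp2d10: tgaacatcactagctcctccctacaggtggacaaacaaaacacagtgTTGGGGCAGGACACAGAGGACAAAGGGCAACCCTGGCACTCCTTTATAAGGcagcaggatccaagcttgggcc
Cyp2d26: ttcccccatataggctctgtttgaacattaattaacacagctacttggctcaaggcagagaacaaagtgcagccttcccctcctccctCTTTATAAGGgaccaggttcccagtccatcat
These are chr15:82452257-82452376 on the plus strand, chr15:82407195-82407314 on the minus strand and chr15:82794246-82794365 on the minus strand of GRCm38.p6. Cyp2d9 and Cyp2d10 share 51 letters without a mismatch, ending 20 and 23 bases before their starts. Cyp2d26 shares 10 letters with Cyp2d9, around the TATA-like stretch. Over 250 bases, Cyp2d9 and Cyp2d10 were 82.3% identical, and Cyp2d26 was 50.5% identical to Cyp2d9 and 50.2% to Cyp2d10. RefSeq promoters of Cyp2d12, Cyp2d22 and Cyp2d34 were not used here.

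The Cyp3a genes encode the main drug-oxidising enzymes of gut and liver and are induced through PXR. Cyp3a25 stood at 5.91 in F/F against 7.78 in ΔIE, a difference of 1.87 with the lower value just under the filter. Cyp3a13, which lies apart from the Cyp3a cluster, read 10.31 and 10.76, a difference of 0.45. The 3 others were below the filter: Cyp3a44 read 4.70 and 5.52, Cyp3a11 3.69 and 4.09, and Cyp3a16 2.97 and 2.76. Cyp3a25 was the only gene of its cluster above the filter, and its promoter was 52.7% identical to that of Cyp3a11 and 51.6% to that of Cyp3a44. Nr1i2, the gene of PXR, stood at 8.18 in F/F against 8.78 in ΔIE, and Abcb1a, a drug efflux pump gene known as another PXR target, 12.05 and 12.83.

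The remaining xenobiotic genes kept were under 2-fold. Cyp2e1, which oxidises ethanol and other small molecules, was at 8.31 in F/F against 9.05 in ΔIE (1.68-fold). The adipose list was higher on the same array, with means of 8.93 and 9.65 over its 8 genes, and its part in the value was not tested. Cyp2f2, known from the airway as the enzyme that activates naphthalene, read 9.89 and 9.39. Cyp2s1, an epithelial gene inducible through the aryl hydrocarbon receptor, read 9.70 and 9.96. Cyp1b1, another gene under that receptor, which is known from stromal cells, read 6.47 and 5.82. The receptor gene Ahr was lower too, at 10.12 and 9.38 (1.67-fold), and of its other known targets Nqo1 read 9.07 and 9.89 and Tiparp 9.48 and 9.47. The fibroblast list, with 11 of 12 genes lower and means of 10.57 and 9.72, was lower on the same array as Cyp1b1, and its part in the value was not tested.

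Of 19 fatty acid genes, 7 were kept, with 5 above and 2 below 0, where 52.7% of all genes kept were above 0. Their median was 0.62 beside 0.02 over all genes. Of the 7, 1 gene was at least 2-fold higher and 1 lower, beside 1.15% and 5.30% of all genes kept. Without a filter the median over all 19 was 0.15, so the size of the shift rests on the genes kept. Cyp4b1, which hydroxylates medium-chain fatty acids and activates some protoxins, stood at 8.48 in F/F against 9.66 in ΔIE and was 2.26-fold higher. Cyp4f14 and Cyp4f13 encode omega-hydroxylases of the kind that inactivates leukotrienes. Cyp4f14 read 9.01 and 9.76 (1.68-fold). Cyp4f13, its neighbour in gene order, read 7.59 and 8.23 (1.56-fold), and Cyp4f16, farther along the same cluster, read 8.88 and 8.92. Cyp2j6, an epoxygenase gene of the gut, read 7.75 and 8.37, with 7.39 and 7.88 by its second probe set.

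Cyp4f18 and Cyp4v3 went the other way. Cyp4f18, which lies outside the Cyp4f cluster and is known as the leukotriene B4 hydroxylase of mouse neutrophils, stood at 7.44 in F/F against 6.29 in ΔIE and was 2.22-fold lower. All 13 neutrophil genes kept were lower on the same arrays, with means of 10.51 and 9.06 and differences from -1.87 to -0.66, a range that holds the -1.15 of Cyp4f18. The part of neutrophil number in it was not tested. Averaged with a dim second probe set (4.71 on both arrays), Cyp4f18 differed by -0.57. Cyp4v3, the mouse counterpart of a fatty acid hydroxylase gene of the human retina, read 7.78 and 7.20. Its other probe set read 5.78 and 4.76, below the filter. The peroxisome proliferator target Cyp4a14 was dim at 3.56 and 3.80, while Ppara, the gene of the receptor that induces it in liver, read 8.24 and 9.41 (2.25-fold higher).

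**Figure D4:**
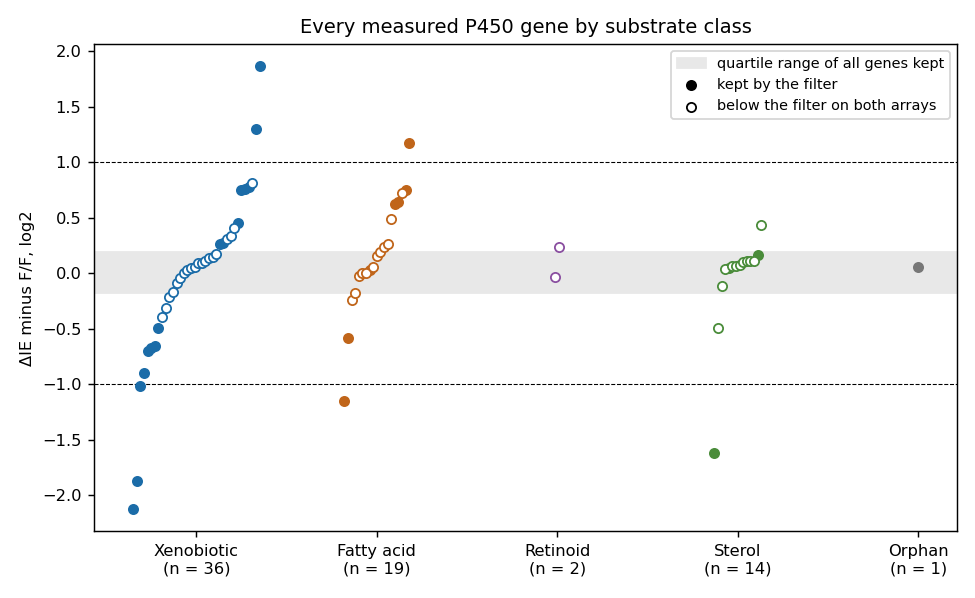
Every one of the 72 P450 genes is plotted by class with its difference ΔIE minus F/F (log2) on the y axis; filled circles are genes kept, open circles genes below the filter on both arrays, dashed lines mark 2-fold, and the grey band runs between the quartiles of all genes kept, -0.18 and 0.19. Xenobiotic genes spread furthest to both sides, from -2.13 to 1.87, and most sterol genes lie inside the band, with Cyp7b1 at -1.62, Cyp2r1 at -0.49 and Cyp24a1 at 0.43 outside it.

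Neither retinoid gene measured reached the filter. Cyp26a1 was at 4.16 in F/F against 4.40 in ΔIE, and Cyp26b1 5.64 and 5.60. Both encode enzymes that break down retinoic acid, and Cyp26a1 is a known target of the retinoic acid receptors. Of 11 genes kept that make, carry or convert retinoids, 3 were at least 2-fold lower and 2 at least 2-fold higher, beside 5.30% and 1.15% of all genes kept, with a median of -0.13. Aldh1a3, which makes retinoic acid, read 10.39 and 8.51 (3.69-fold lower), while its relative Aldh1a1 read 11.44 and 12.49 (2.06-fold higher). Crabp2, a retinoic acid carrier, and Stra6, a retinol uptake receptor, were 2.85-fold and 2.68-fold lower, and the retinol carrier gene Rbp4 was 2.30-fold higher. The squamous epithelium list was lower on the same arrays, with means of 9.87 and 8.89 over 11 genes, and its part in these values was not tested. The receptor genes Rara and Rarg read 6.83 and 6.79, and 8.95 and 8.86. Their relative Rarb differed more, by -0.66 (7.10 and 6.43, 1.58-fold).

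Among sterol genes 3 of 14 were kept, and 1 of them, Cyp7b1, was at least 2-fold lower, where 5.30% of all genes kept were. Cyp7b1 encodes the oxysterol 7α-hydroxylase, which takes part in the acidic route of bile acid synthesis and in making oxysterols that guide B cells. It stood at 8.45 in F/F against 6.83 in ΔIE and was 3.08-fold lower, and its second probe set 7.96 and 6.47. The third, at 3.20 and 3.11, was near the floor of the array. The macrophage (-1.14), fibroblast (-0.92) and endothelial (-0.45) medians were lower on the same arrays, and their part in the Cyp7b1 value was not tested. B cells have no marker list here, and their part was not tested either.

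Cyp27a1, the mitochondrial sterol 27-hydroxylase whose product Cyp7b1 uses, read 9.13 and 9.17. Cyp39a1, which acts on another hydroxysterol, read 8.01 and 8.17. Both lay between the quartiles of all genes kept, -0.18 and 0.19, and Cyp7b1 did not. Cyp51, the lanosterol demethylase of cholesterol synthesis, read 9.80 and 9.97 by its brightest probe set, and its 2 dimmer ones differed by 0.01 and 0.30. None of the 17 genes kept of the sterol synthesis list differed by 2-fold. That count is near the shares of 5.30% lower and 1.15% higher over all genes kept. The differences of these genes ran from -0.14 to 0.37.

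The P450 genes of vitamin D and of steroid hormone synthesis were below the filter. Cyp24a1, which inactivates vitamin D and is strongly induced by its receptor, read 4.73 in F/F and 5.16 in ΔIE. Cyp27b1, which activates vitamin D, read 3.39 and 3.49, and Cyp2r1, which carries out the first step in liver, 4.05 and 3.55. Vdr, the vitamin D receptor gene, read 11.37 and 11.96. Its intestinal target genes were split, with S100g, a calcium-binding protein gene, at 10.80 and 11.85 and Trpv6, a calcium channel gene, at 7.44 and 5.68. The ΔIE value of Trpv6 was under the filter, which this gene passed only through the F/F array. The steroidogenic genes Cyp11a1 and Cyp11b1 read 4.51 and 4.62, and 3.71 and 3.82, and Nr5a2, the gene of the receptor LRH-1 known to control them in the gut, 8.67 and 9.87 (2.29-fold higher). On the vitamin D and steroid list, which holds no P450 gene, 8 genes were kept. Of these, 3 were at least 2-fold higher and 1 lower, beside 1.15% and 5.30% of all genes kept. The 1 lower gene was Trpv6, whose direction was favoured by the filter. The largest difference was that of Akr1c21, at 6.86 in F/F and 8.69 in ΔIE (3.54-fold higher). Tbxas1 (thromboxane synthase) and Ptgis (prostacyclin synthase) are P450 genes by structure whose symbols do not match the rule. They read 6.58 and 6.29, and 8.02 and 7.89.

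Of 9 electron transfer genes kept, 8 were above 0, where 52.7% of all genes kept were, with a median of 0.09; the cytochrome b5 genes Cyb5a and Cyb5b read 11.75 and 11.84, and 11.08 and 11.36, and the mitochondrial ferredoxin gene Fdx1 10.76 and 11.21. Of 11 haem genes kept, 8 were above 0, with a median of 0.09. No gene of either list differed by 2-fold, a count near the shares of 5.30% lower and 1.15% higher over all genes kept. Nqo1 had the largest difference of the electron transfer list, at 9.07 in F/F and 9.89 in ΔIE (1.77-fold). Alas1, the rate-limiting enzyme of haem synthesis, had the largest of the haem list, at 10.87 and 11.63 (1.70-fold). The haem oxygenase gene Hmox1 read 6.35 and 5.96.

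Of 23 regulator genes kept, 15 were above 0, where 52.7% of all genes kept were, with a median of 0.19. Nr5a2 and Ppara were at least 2-fold higher and none was that much lower, beside 1.15% and 5.30% of all genes kept. Pparg was at 9.63 in F/F against 10.57 in ΔIE, and Nr1h4, the gene of the bile acid receptor FXR, 9.72 and 10.57. Cebpb, at 10.92 and 10.01, and Ahr were the lowest. Arnt, the partner of both AHR and the HIF-α subunits, read 8.73 and 8.70.

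The list of conjugation, hydrolysis and efflux genes also holds flavin monooxygenase genes, which encode oxidising enzymes. Of its 25 genes kept, 21 were above 0 and 4 below, where 52.7% of all genes kept were above 0. Fmo1 (-0.57) and Fmo2 (-0.02) are among the 4, and Fmo5 (0.85) was higher. The median of the 25 was 0.51, and 2 were at least 2-fold higher, beside 1.15% of all genes kept. The glucuronosyltransferase gene Ugt2b5 read 8.40 and 9.94 (2.92-fold higher) and the sulfotransferase gene Sult1c2 8.71 and 9.77 (2.08-fold). Gsta4, a glutathione transferase gene, was the lowest at 12.35 and 11.73. On the same arrays 10 of 12 colonocyte genes were higher (median 0.19) and the neutrophil, macrophage, squamous and fibroblast lists lower (medians -1.56, -1.14, -1.17 and -0.92), and their part in these values was not tested.

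Eicosanoid genes had a median of -0.28 over 12 kept, with 3 at least 2-fold lower and none that much higher, beside 5.30% and 1.15% of all genes kept. The 12 include Tbxas1 and Ptgis. The neutrophil (-1.56), macrophage (-1.14) and squamous (-1.17) medians were lower on the same array, and their part in these values was not tested. Alox12, a lipoxygenase gene, read 8.41 and 6.70, Ptgs2, the inducible cyclooxygenase gene, 8.47 and 7.45, and Pla2g2a, a phospholipase gene, 7.64 and 6.59. The soluble epoxide hydrolase gene Ephx2, whose enzyme breaks down P450 epoxides, differed by 0.49.

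**Figure D5:**
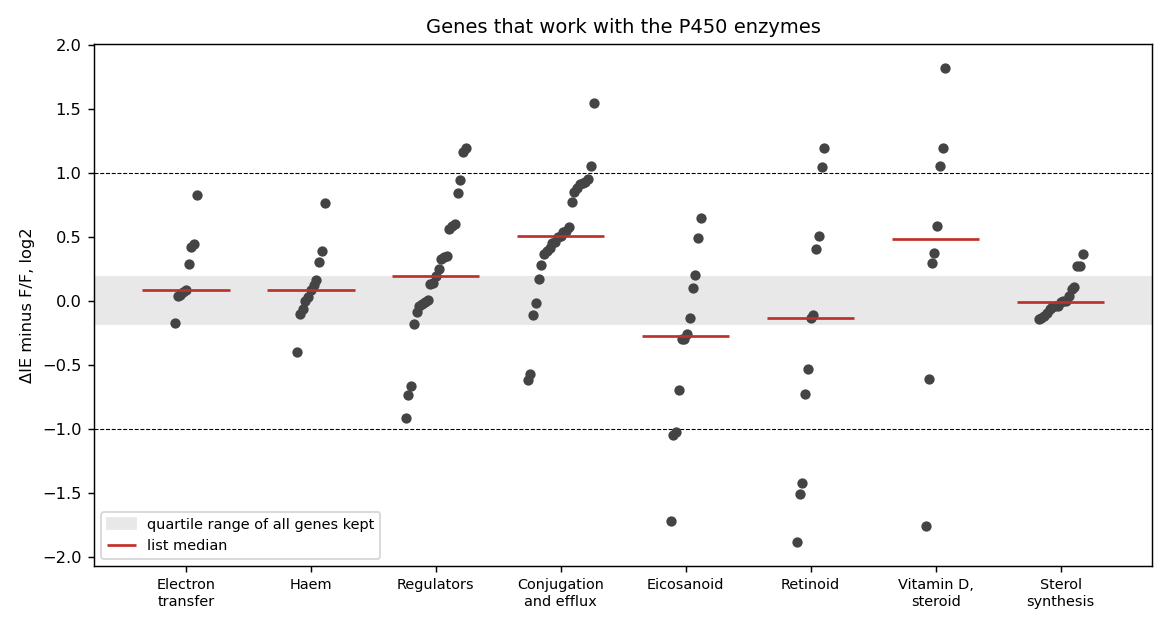
Each dot is a gene kept by the filter in 1 of 8 lists of genes that work with P450 enzymes or in the same routes, with the difference ΔIE minus F/F (log2) on the y axis; red bars are list medians, dashed lines mark 2-fold and the grey band runs between the quartiles of all genes kept. The conjugation and efflux list, which also holds flavin monooxygenase genes, has a median of 0.51. Eicosanoid genes have a median of -0.28, and all sterol synthesis genes lie between -0.14 and 0.37.

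Promoter motifs were also counted over the 250 bases before the start for the 21 P450 genes kept that have a RefSeq promoter, on both strands. The letters ACGTG, 1 form of the core to which HIF proteins bind, were in 3 of them (Cyp2e1, Cyp2j6 and Cyp4v3), where 16.6% of all promoters held it. This form was in none of the 6 genes that differed by 2-fold and have a promoter. GCGTG, the other form of the HIF core, is also the core of the aryl hydrocarbon receptor site. It was in 6 genes, where 28.2% of all promoters held it. Cyp1b1 and Cyp2c68 are among them, and of these only Cyp2c68 differed by 2-fold. AGGTCA, a nuclear receptor core, was in Cyp2f2 and Cyp3a25, where 13.8% of all promoters held it, and GTTAAT, part of the HNF1 site, in Cyp2c68 and Cyp2d26, where 6.5% did. These counts describe letters in this window, and absence there says nothing about binding elsewhere.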

How the data were processed

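The deposited table holds log2 expression of 45101 probe sets on 2 arrays, which the authors computed with affy and RMA, according to the submitters' processing notes. The sources used here do not give versions, a filter or which arrays were normalized together. RMA equalises the arrays' distributions, so a change in total RNA is not seen. The arrays spanned 2.27 to 14.43 (F/F) and 2.31 to 14.48 (ΔIE); their number limits the precision. Symbols came from a platform annotation table (1 symbol for 34958 probe sets, several for 932, none for 9211); 64 control probe sets were set aside. Groups came from the genotype label. No test between genotypes was possible. Genes named were every P450 gene kept, with others as examples, and, per partner list, those at 2-fold or of largest difference or tied by textbook knowledge to a P450 gene. Members and lists were chosen with earlier results of these data known. Classes followed subfamily: Cyp2j and Cyp2u joined fatty acid and Cyp2r sterol. The counting was tested on simulated data. Promoters and gene order came from RefSeq (GRCm38.p6; 51 of 72 genes had a promoter); identity used global alignment in Biopython 1.88. Alternatives were other probe set rules, filters, scalings and thresholds. Python 3.11.15, numpy 2.4.6, pandas 2.3.3, statsmodels 0.14.6 and matplotlib 3.10.9 were used.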

Additional observations from a re-analysis of the deposited data

How the results depend on the processing

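No paired analysis was possible because each genotype has 1 array, and for the same reason none could be left out. The count of P450 genes lower by the threshold was 3 under the 75th percentile filter, 9 at 1.5-fold and 3 at 3-fold, in place of 5, and the count higher was 9 at 1.5-fold and 1 at 3-fold, in place of 3. The median over P450 genes was 0.26 with probe sets averaged, 0.21 with the 75th percentile filter and 0.17 with the filter on both arrays, in place of 0.06. The xenobiotic median of -0.12 reversed to 0.26 with probe sets averaged, 0.074 without a filter, 0.26 with the 75th percentile filter and 0.26 with the filter on both arrays, and was -0.49 without probe sets ending in _s_at or _x_at, which leaves Cyp2c65 without a value. The fatty acid median was 0.15 without a filter in place of 0.62, and the sterol median -0.45 with probe sets averaged in place of 0.05. Cyp7b1 averaged over probe sets was -1.07. Median centring and lowess shifted no P450 gene by more than 0.07 and changed no sign; centring took Cyp2d10 under 2-fold. A gene was taken to have moved at over 0.41, and a median at over 0.10, the 95th percentile and the median of the distance between the 2 brightest probe sets of 5110 genes, limits chosen after seeing the data. The cause of each move was not tested beyond the change in which genes or probe sets were counted. Por could not be recomputed under any setting.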

Other observations

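Oxysterol signalling to B cells, in which the Cyp7b1 product is formed from 25-hydroxycholesterol, was read after the values had been seen. Ch25h, which makes 25-hydroxycholesterol, read 7.02 in F/F and 6.20 in ΔIE. Hsd3b7, the enzyme that degrades the Cyp7b1 product, read 8.99 and 9.28. Gpr183, the receptor for that product on B cells and other leukocytes, read 7.14 and 5.69, the lower value being under the filter. These 3 genes are not on the fixed lists, and their values rest on the same 2 arrays. B cell genes are not on those lists either, and the part of B cell number in these values was not tested.

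Another 4 probe sets match several P450 genes at once and were not counted with any of them. The one for Cyp4f37 and Cyp4f16 read 7.91 and 8.14. The others were below the filter: that for Cyp2a5 and Cyp2a4 read 4.76 and 4.81, that for Cyp4a31 and Cyp4a10 4.26 and 4.12, and that for Cyp3a41b and Cyp3a41a 2.73 and 2.99.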
